A study of Danio rerio with 6 samples.

Results

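The genes described here code for the regulators that help the spliceosome choose its splice sites: the SR proteins and their Tra2 relatives, the hnRNPs, the PTB and Rbfox proteins, the nuclear speckle proteins related to SR proteins, and the CLK kinases. They were chosen by gene symbol from a list of 48, of which 46 had a row among the 32520 genes of the deposited tables. The list was chosen with earlier results of these data known. All 46 passed the filter on low counts, which 22347 genes passed in all. The symbol son had no row. The symbol srsf10a had none either, while the gene ENSDARG00000112572, listed under the clone name CR293507.1, carries the symbol srsf10a in the Ensembl name table. The symbol srsf3a stood on 2 rows, ENSDARG00000025397 and ENSDARG00000100815, and the second of these had 1 to 8 counts per library and was not tested.

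Zebrafish embryos at 3 days post fertilization were compared between bcas2-KO and WT, with 3 RNA pools of 10 genotyped embryos in each group. The sources used here do not give the strain, the knockout allele or the clutches. Gene counts summed to between 32822716 and 40462653 in bcas2-KO libraries and between 35560010 and 49526995 in WT libraries. The targeted gene bcas2 had 3.54, 3.09 and 4.49 CPM in bcas2-KO libraries 1, 2 and 3, whereas WT libraries 1, 2 and 3 had 29.4, 27.9 and 27.4 CPM. The mean was 7.62-fold lower (log2 fold change -2.94, SE 0.13, adjusted p = 4.4e-06). CPM are counts relative to the TMM-scaled library total, and values are given for libraries 1, 2 and 3 in that order throughout. Per its design text the study looked for changes in gene expression and in splicing, and splicing cannot be read from gene counts.

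SR proteins carry RNA-recognition domains and a tail rich in arginine and serine, bind exon sequences and help to recruit the splicing machinery. The hnRNPs coat nascent transcripts and often oppose exon inclusion, and PTB proteins repress exons next to pyrimidine-rich stretches. The CLK kinases phosphorylate the SR tails in the nucleus, and SRPK kinases do so mainly in the cytoplasm. In mammals, many SR and hnRNP genes also hold a poison exon, whose inclusion sends the transcript to nonsense-mediated decay. A count per gene adds up productive and unproductive transcripts. Bcas2 belongs to the Prp19 complex, which acts in the catalytic spliceosome.

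Transcripts of these regulators were more often higher than lower in bcas2-KO embryos. Of the 46 tested, 25 were higher, 2 were lower and 19 did not pass (edgeR quasi-likelihood test, adjusted p under 0.05), while 10.6% of all tested genes were higher and 9.01% lower, 19.6% in all. Among genes with a mean of at least 10 FPKM, the deposited level per length of gene model, 15.2% were higher and 9.65% lower. Among the 46, 30 had every bcas2-KO value above every WT value and 2 had every one below, while this held for 20.1% and 19.4% of all tested genes. As the list was chosen with earlier results known, these shares are a description and not a test. The median log2 fold change was 0.34 over the members and -0.02 over all tested genes. These were moderate differences: 6 of the 25 were at least 1.5-fold higher, namely clk2a, hnrnpa0a, srsf1b, srrm2, tra2b and hnrnpr.

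The number of members called higher fell to 12, 15 and 11 without bcas2-KO library 1, 2 or 3, and to 10 and 12 without WT library 2 or 3. It was 30 without WT library 1. In that fit the median log2 fold change was 0.46 over the members and -0.01 over all tested genes, and the share of all tested genes called is not given here. The number of members called lower was 0 without bcas2-KO library 1 or 2 or WT library 2. Calls over all tested genes fell too: 1179 of 22764 were higher without bcas2-KO library 1 and 1727 of 22692 without bcas2-KO library 2. With all 6 libraries 2369 of 22347 were higher. In the 6 fits that left out 1 library, the median of the members lay between 0.28 and 0.46. There were 9 members that stayed higher in all 16 alternative fits: srsf1b, srsf7a, tra2b, srrm1, srrm2, hnrnpa0a, ptbp1b, ptbp2a and clk2a.

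**Figure D1:**
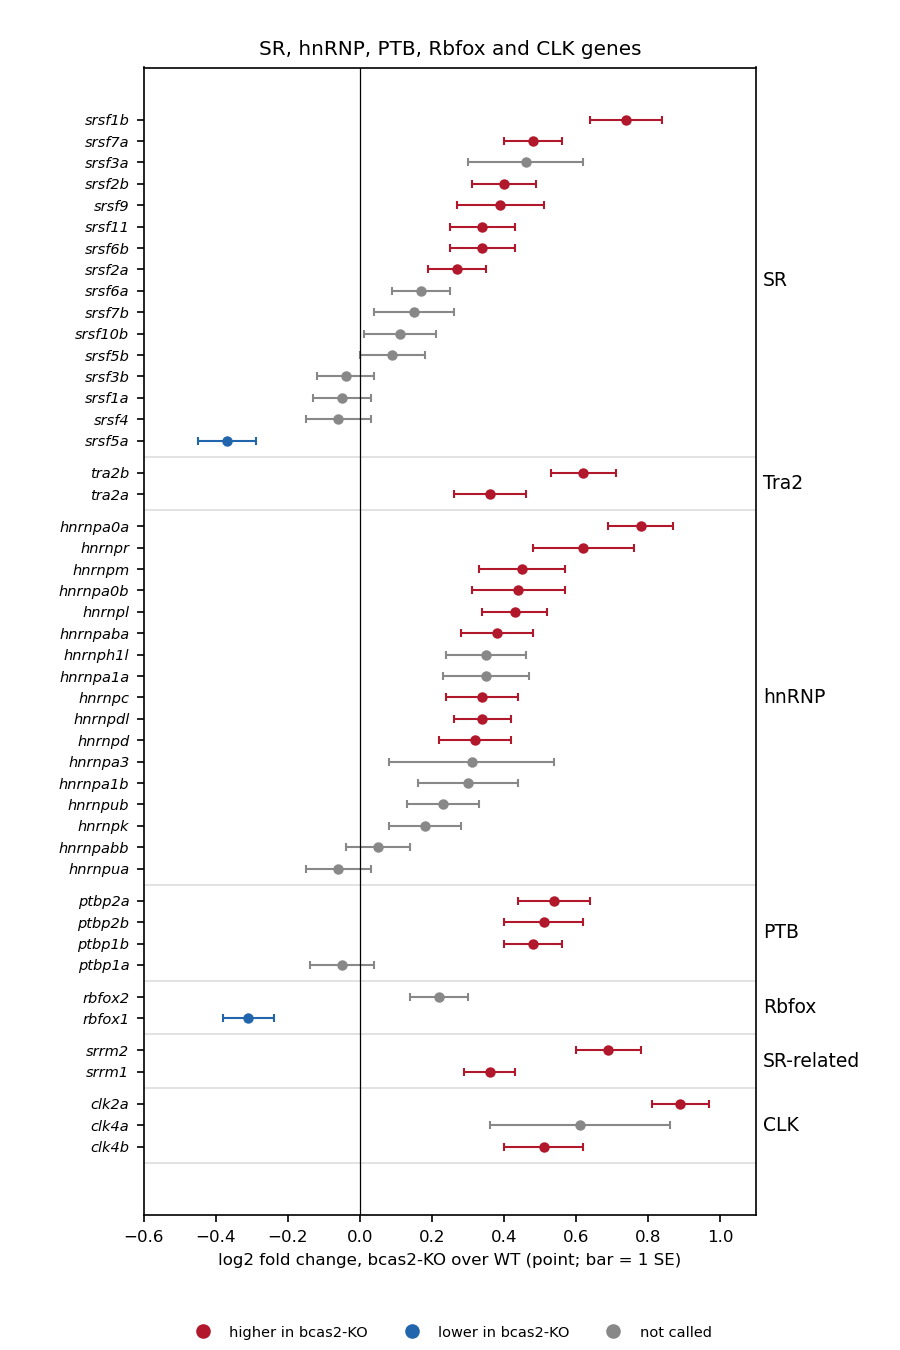
Log2 fold change of bcas2-KO over WT on the horizontal axis for the 46 tested genes, grouped by subfamily, with bars of 1 SE and colours for the edgeR call. Points to the right of 0 dominate every group except Rbfox, and srsf5a (-0.37) and rbfox1 (-0.31) are the 2 members called lower.

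The WT libraries differed among themselves in these genes. WT library 1 had the highest WT value in 37 of 46 members, against 35.4% of all tested genes. WT library 3 had the lowest in 34, against 36.2% of all tested genes. In bcas2-KO, library 3 had the highest value in 23 of 46 members (50.0%), against 35.4% of all tested genes. The median coefficient of variation of the members was 5.59% in bcas2-KO and 10.0% in WT. Over all tested genes, many of them less abundant than the members, it was 10.3% in bcas2-KO and 11.3% in WT. The spread of genes of similar level was not computed, so these values do not say in which genotype the members were unusual. Other transcripts also differed between libraries, and not in the same order. The summed level of 8 lens markers was 301 FPKM in bcas2-KO library 3 and 360 FPKM in WT library 1, and 0.777 to 6.51 FPKM in the other 4 libraries, and 7 photoreceptor markers behaved in the same way (99.9 and 265 FPKM, against 1.41 to 4.31). The sources used here do not state whether heads or eyes were removed from any pool, so the tissue sampled may have differed between libraries. Without the 2 libraries that held lens and photoreceptor transcripts, 26 members were higher and 2 lower. The median log2 fold change in that fit was 0.46 over the members and -0.02 over all tested genes. The share of all tested genes called in it is not given here. The summed level of 6 skeletal muscle markers was 84994, 92460 and 98190 FPKM in bcas2-KO and 86788, 98507 and 114425 FPKM in WT, and 1 of the 6 was lower. Other cell type markers were lower in bcas2-KO: 3 of 4 skin, 3 of 4 erythroid and 2 of 5 neural progenitor markers, with summed levels of 13580 to 16860 FPKM against 18861 to 21419 FPKM for skin, 1075 to 1536 FPKM against 1750 to 2487 FPKM for erythroid and 502 to 532 FPKM against 685 to 843 FPKM for progenitor markers (bcas2-KO against WT). The 2 lower genes of the progenitor list were fabp7a (mean 182 FPKM in bcas2-KO and 319 FPKM in WT) and pcna (253 and 342 FPKM). Together they made up most of that sum. As pcna is not specific to neural progenitors, the sum does not stand for these cells alone. The progenitor markers sox2 (log2 fold change -0.09, adjusted p = 0.542), sox3 (-0.21, 0.538) and sox19a (-0.04, 0.889) did not pass. Over all tested genes 9.01% were lower, against 16.7% of the short muscle list, 40.0% of the progenitor list and 75.0% of the skin and of the erythroid list. No marker was at 0 in all libraries. The part of these cell types in the results was not tested. In pooled embryos, fewer cells of a type and less RNA per cell cannot be told apart.

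In the SR family proper, 7 of 16 tested genes were higher (43.8%), 1 was lower (6.25%) and 8 did not pass, with a median log2 fold change of 0.22. Over all tested genes 10.6% were higher and 9.01% lower. The number higher was 2 or 3 when any single library other than WT library 1 was left out. The strongest difference was in srsf1b, a copy of the founding SR protein gene, at 106, 110 and 98.6 CPM in bcas2-KO while WT had 72.0, 58.0 and 57.9 CPM. All bcas2-KO values lay above all WT values, and the fold was 1.67 (log2 fold change 0.74, SE 0.10, adjusted p = 0.00144). Its duplicate srsf1a had 92.8, 89.5 and 89.3 CPM in bcas2-KO and 101, 92.1 and 88.0 CPM in WT (log2 fold change -0.05, SE 0.08, adjusted p = 0.673). The 2 genotypes overlapped in srsf1a. The gene srsf7a, whose product also takes part in mRNA export, had 105, 98.1 and 108 CPM in bcas2-KO and 80.2, 73.5 and 69.0 CPM in WT (log2 fold change 0.48, SE 0.08, adjusted p = 0.00425). Its copy srsf7b was at 14.5, 13.0 and 13.3 CPM in bcas2-KO and 13.6, 11.0 and 12.1 CPM in WT, and did not pass (log2 fold change 0.15, SE 0.11, adjusted p = 0.35).

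The srsf2 genes code for SC35, a protein of nuclear speckles. Transcripts of srsf2a were at 171, 167 and 190 CPM in bcas2-KO and 155, 140 and 143 CPM in WT (log2 fold change 0.27, adjusted p = 0.0438). Those of srsf2b were at 33.9, 36.6 and 38.1 CPM in bcas2-KO and 30.5, 26.0 and 25.8 CPM in WT (0.40, adjusted p = 0.0181). Both copies were higher in each bcas2-KO library than in any WT library. The gene srsf6b was at 89.2, 87.6 and 88.7 CPM in bcas2-KO and 77.6, 63.2 and 68.5 CPM in WT (0.34, adjusted p = 0.0235), and srsf6a at 128, 132 and 143 CPM in bcas2-KO and 131, 116 and 113 CPM in WT (0.17, adjusted p = 0.19). The genotypes overlapped in srsf6a through WT library 1. The remaining SR genes that were higher were srsf9 (0.39, adjusted p = 0.0414) and srsf11 (0.34, adjusted p = 0.0239). Left out 1 at a time, each library other than WT library 1 ended the calls of srsf2a, srsf6b, srsf9 and srsf11, with adjusted p between 0.0513 and 0.163. That of srsf2b ended without bcas2-KO library 3 (0.064) and without WT library 2 (0.0837) or 3 (0.0506). The calls of srsf2a and srsf9 were also lost with upper-quartile factors (0.0942 and 0.0717) and with limma. That of srsf9 was lost with no scaling factors too (0.0549).

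The only SR gene called lower was srsf5a. It had 174, 177 and 204 CPM in bcas2-KO, and 238, 240 and 241 CPM in WT. The WT libraries were almost equal, and every bcas2-KO library lay below them, by 1.30-fold on average (log2 fold change -0.37, SE 0.08, adjusted p = 0.0132). Its copy srsf5b had 134, 137 and 160 CPM in bcas2-KO and 134, 130 and 141 CPM in WT (0.09, SE 0.09, adjusted p = 0.499), with overlap. The srsf5a call was lost without bcas2-KO library 1 (adjusted p = 0.0637) or 2 (0.0538) and without WT library 2 (0.0589), with log2 fold changes from -0.45 to -0.33 over all alternatives.

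The other SR genes included both srsf3 copies, which code for the smallest SR protein. The gene srsf3b was at 122, 114 and 132 CPM in bcas2-KO and 134, 120 and 124 CPM in WT (-0.04, adjusted p = 0.78). The second copy, srsf3a, was at 3.73, 3.39 and 4.0 CPM in bcas2-KO and 2.80, 2.39 and 2.87 CPM in WT (0.46, SE 0.16, adjusted p = 0.0668). These srsf3a values do not overlap, but they rest on 96 to 154 counts per library. The Ensembl name table gives this row the symbol SRSF3 and the untested row the symbol srsf3a. The gene srsf4 (-0.06, adjusted p = 0.659) and srsf10b (0.11, adjusted p = 0.449) overlapped between the genotypes. The gene ENSDARG00000112572, named srsf10a in the Ensembl table, had 7.63, 8.36 and 6.77 CPM in bcas2-KO and 6.15, 5.70 and 4.67 CPM in WT (0.46, SE 0.14, adjusted p = 0.0467). Its level per length should be read with care, since its FPKM in WT was 12.1 times its CPM, against 1.83 times for srsf10b. It is not counted among the members.

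Tra2 proteins, named after transformer-2 of Drosophila, are SR-like activators of purine-rich exons, and both of their genes were higher. Transcripts of tra2b were at 31.2, 29.7 and 30.9 CPM in bcas2-KO and 21.9, 19.8 and 17.8 CPM in WT, 1.54-fold higher (log2 fold change 0.62, SE 0.09, adjusted p = 0.00261). For tra2a they were at 68.4, 65.1 and 61.3 CPM in bcas2-KO and 58.4, 47.3 and 46.2 CPM in WT (0.36, SE 0.10, adjusted p = 0.0353). In neither gene did the genotypes overlap. The tra2a call was lost without any library other than WT library 1 (adjusted p from 0.0617 to 0.141). It was also lost with upper-quartile factors (0.0672), with no scaling factors (0.0589) and with limma (0.0509 and 0.0512).

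Both tested genes for SR-related proteins were higher. The speckle scaffold gene srrm2 had 87.4, 77.6 and 92.0 CPM in bcas2-KO and 56.2, 54.0 and 49.1 CPM in WT (log2 fold change 0.69, SE 0.09, adjusted p = 0.00121). The gene srrm1, for a splicing coactivator, had 132, 125 and 136 CPM in bcas2-KO and 104, 103 and 100 CPM in WT (0.36, SE 0.07, adjusted p = 0.00843). The lowest bcas2-KO library was above the highest WT library in each of them.

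**Figure D2:**
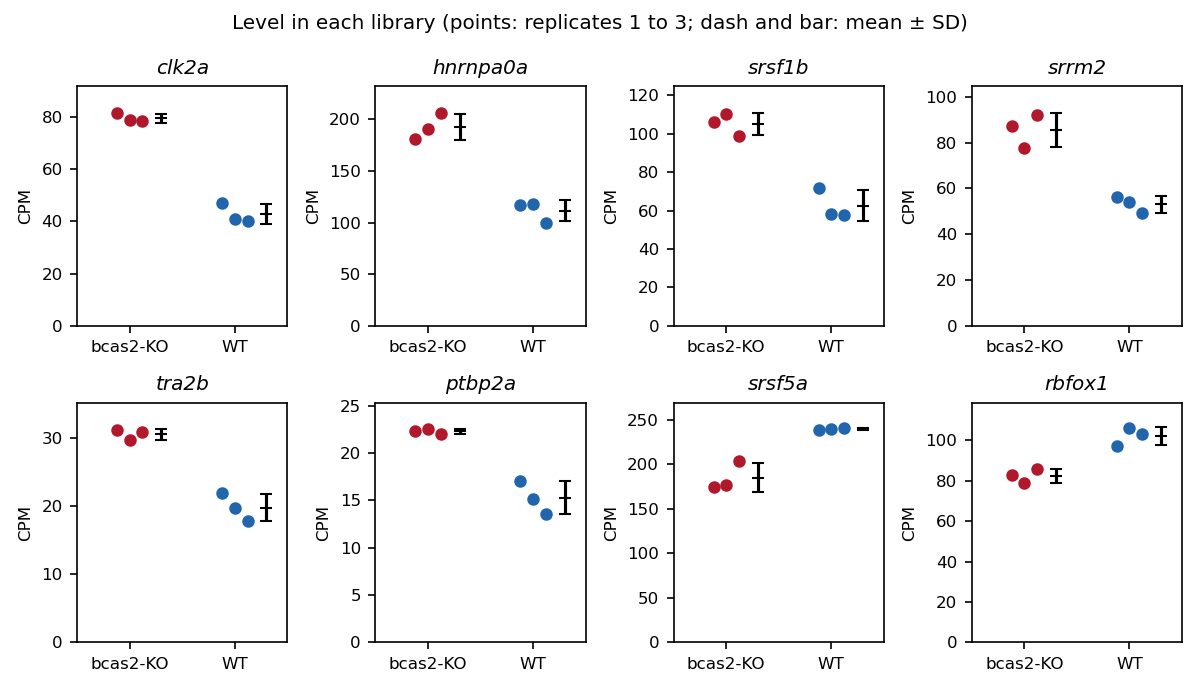
CPM of 8 members in each library, with the 3 bcas2-KO libraries on the left and the 3 WT libraries on the right of each panel, replicates in order from left to right, and mean ± SD beside them. The genotypes do not overlap in any of the 8 panels, with srsf5a and rbfox1 lower and the other 6 higher in bcas2-KO.

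Among hnRNP genes, 9 of 17 were higher (52.9%), 0 were lower and 8 did not pass, and the median log2 fold change was 0.34. Over all tested genes 10.6% were higher and 9.01% lower. The count of lower hnRNP genes was also 0 with DESeq2 and, in edgeR, at an unadjusted p under 0.05. The clearest member was hnrnpa0a, for a protein that binds AU-rich RNA, at 181, 191 and 206 CPM in bcas2-KO and 117, 118 and 99.9 CPM in WT. The fold was 1.72, with no overlap (log2 fold change 0.78, SE 0.09, adjusted p = 7.3e-04). The copy hnrnpa0b had 5.91, 6.66 and 5.81 CPM in bcas2-KO and 4.54, 4.87 and 4.13 CPM in WT (0.44, SE 0.13, adjusted p = 0.0396). Its call was lost when any of the 6 libraries was left out (adjusted p from 0.0638 to 0.129). Upper-quartile factors (0.0666), no filter (0.0529) and limma (0.0519 and 0.0516) ended the hnrnpa0b call as well.

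Next by p came hnrnpl, whose protein binds CA repeats. It had 167, 176 and 187 CPM in bcas2-KO and 143, 132 and 119 CPM in WT (log2 fold change 0.43, SE 0.09, adjusted p = 0.0102), with no overlap. Its call was lost without WT library 2 (0.0503). The member with the highest mean FPKM in WT, hnrnpaba, had 638, 648 and 627 CPM in bcas2-KO and 552, 495 and 420 CPM in WT (0.38, SE 0.10, adjusted p = 0.0288). The 3 bcas2-KO libraries were close to each other and the WT libraries spread widely. Its copy hnrnpabb had 245, 247 and 245 CPM in bcas2-KO and 263, 233 and 217 CPM in WT (0.05, adjusted p = 0.725), and the genotypes overlapped.

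The other hnRNP genes that were higher were hnrnpr (0.62, adjusted p = 0.02), hnrnpm (0.45, 0.0256), hnrnpc (0.34, 0.0408), hnrnpdl (0.34, 0.0217) and hnrnpd (0.32, 0.045). Their products include hnRNP C, which binds uridine tracts, and hnRNP D, which binds AU-rich elements of unstable mRNAs. No genotypes overlapped in these 5 genes. Each library other than WT library 1, left out alone, ended the calls of hnrnpaba, hnrnpc, hnrnpd and hnrnpm (adjusted p from 0.0552 to 0.16). Upper-quartile factors ended the calls of hnrnpaba (0.053), hnrnpc (0.0788) and hnrnpd (0.0914). With no scaling factors and with limma, those of hnrnpc and hnrnpd were lost too. Those of hnrnpr and hnrnpdl ended without bcas2-KO library 3 (0.0673 and 0.0838), WT library 2 (0.0782 and 0.0957) or WT library 3 (0.0745 and 0.055), and that of hnrnpr also without bcas2-KO library 1 (0.0688). The number of hnRNP genes called higher was 3, 4 and 2 without bcas2-KO library 1, 2 or 3, and 12, 1 and 2 without WT library 1, 2 or 3. Higher calls over all tested genes were 1179 of 22764 without bcas2-KO library 1 and 1727 of 22692 without bcas2-KO library 2. They are not given here for the other fits, so the count of 1 has no share beside it.

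Several hnRNP genes missed the threshold with wide scatter between WT libraries. The splicing repressor gene hnrnpa1a had 108, 122 and 118 CPM in bcas2-KO and 107, 90.5 and 75.7 CPM in WT (0.35, SE 0.12, adjusted p = 0.0662), and hnrnpa1b had 156, 176 and 162 CPM in bcas2-KO and 165, 126 and 110 CPM in WT (0.30, SE 0.14, adjusted p = 0.161). In both, WT library 1 stood close to the bcas2-KO libraries and WT library 3 furthest from them. Without WT library 1, hnrnpa1a (log2 fold change 0.49), hnrnpa1b (0.49), hnrnpa3 (0.62) and hnrnph1l (0.49) were called higher. With all 6 libraries, DESeq2 called hnrnpa1a (adjusted p = 0.033) and hnrnph1l (adjusted p = 0.0313) higher. The gene hnrnph1l was also called in edgeR with no filter (adjusted p = 0.0478) and under a replicate block (adjusted p = 0.0407). Whether the replicate numbers used for that block pair the libraries is not known. The scaffold attachment factor genes did not pass either. For hnrnpub the values were 171, 188 and 192 CPM in bcas2-KO and 170, 166 and 133 CPM in WT (0.23, adjusted p = 0.141), and for hnrnpua 57.1, 59.9 and 54.1 CPM in bcas2-KO and 61.4, 64.2 and 52.7 CPM in WT (-0.06, adjusted p = 0.681). Last, hnrnpk, for a protein that binds cytosine-rich RNA, had a log2 fold change of 0.18 (adjusted p = 0.216).

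Of the PTB genes, 3 of 4 were higher. In mammals PTBP1 is the form of most tissues and PTBP2 the form of developing neurons. Transcripts of ptbp2a were at 22.3, 22.6 and 22.0 CPM in bcas2-KO and 17.1, 15.2 and 13.6 CPM in WT (log2 fold change 0.54, SE 0.10, adjusted p = 0.00661). Those of ptbp2b were at 52.5, 49.9 and 58.3 CPM in bcas2-KO and 40.1, 41.6 and 31.2 CPM in WT (0.51, SE 0.11, adjusted p = 0.0151). The gene ptbp1b was higher by a similar factor, with 63.4, 71.8 and 66.4 CPM in bcas2-KO and 51.8, 48.1 and 45.0 CPM in WT (0.48, SE 0.08, adjusted p = 0.00493). In these 3 genes the genotypes did not overlap. The exception was ptbp1a, at 60.1, 66.6 and 67.3 CPM in bcas2-KO and 61.6, 73.1 and 66.0 CPM in WT (-0.05, SE 0.09, adjusted p = 0.733). The ptbp2b call was lost without bcas2-KO library 1 (0.0531) or 3 (0.059) and in the 4 libraries without eye transcripts (0.0502).

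Rbfox proteins regulate exons of neurons and muscle, and of their 2 genes here 1 was lower and 1 did not pass. Transcripts of rbfox1 were lower, at 82.6, 78.7 and 85.9 CPM in bcas2-KO and 97.4, 106 and 103 CPM in WT, 1.24-fold lower with no overlap (log2 fold change -0.31, SE 0.07, adjusted p = 0.0185). Its call was lost without bcas2-KO library 1 (0.0697) or 2 (0.0691) and without WT library 2 (0.0868). For rbfox2 the values were 176, 186 and 197 CPM in bcas2-KO and 171, 160 and 149 CPM in WT (0.22, SE 0.08, adjusted p = 0.0879). They do not overlap, and rbfox2 was called higher without WT library 1 (adjusted p = 0.0399). Of 8 neuronal markers, 1 was lower and 7 did not pass, with a median log2 fold change of -0.03 and a summed level of 445 to 516 FPKM in bcas2-KO and 502 to 567 FPKM in WT. The part of neurons and muscle in the rbfox1 and PTB results was not tested.

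Of the 3 CLK kinase genes among the members, 2 were higher. The gene clk2a had 81.4, 78.9 and 78.3 CPM in bcas2-KO and 47.2, 40.9 and 40.2 CPM in WT. This was the largest fold change of all members, 1.86-fold, with bcas2-KO libraries close together (log2 fold change 0.89, SE 0.08, adjusted p = 2.0e-04). Its copy clk2b is not a member and was counted with the wider list, not in the CLK sum or the duplicate pairs. The values of clk2b overlapped, at 13.3, 17.7 and 13.7 CPM in bcas2-KO and 15.6, 15.7 and 13.5 CPM in WT (log2 fold change -0.0, SE 0.13, adjusted p = 0.994). For clk4b the values were 35.8, 33.7 and 33.2 CPM in bcas2-KO and 27.7, 23.9 and 20.6 CPM in WT (0.51, SE 0.11, adjusted p = 0.0127), and the call was lost without bcas2-KO library 1 (0.0596) or WT library 2 (0.058). The copy clk4a varied within both genotypes, at 118, 104 and 79.7 CPM in bcas2-KO and 89.8, 54.4 and 53.5 CPM in WT (0.61, SE 0.25, adjusted p = 0.143). The genotypes overlapped: the library with eye transcripts was the lowest of bcas2-KO and the highest of WT. With all 6 libraries, clk4a was called higher under a replicate block (log2 fold change 0.63, adjusted p = 0.00621) and by DESeq2 (0.62, adjusted p = 0.0128). It was also called higher without WT library 1 (0.90, adjusted p = 0.00812) and without both libraries with eye transcripts (1.05, adjusted p = 0.00135). The replicate block rests on shared replicate numbers, and whether these pair the libraries is not known.

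Summed over the genes of a subfamily, FPKM gave the amount of transcript per length. The 46 genes together reached 3773, 3830 and 3911 FPKM in bcas2-KO and 3446, 3096 and 2867 FPKM in WT, a ratio of 1.22. The hnRNP sum was 1857, 1944 and 1942 FPKM in bcas2-KO and 1692, 1509 and 1322 FPKM in WT (ratio 1.27), and the SR sum was 1267, 1254 and 1340 FPKM in bcas2-KO and 1227, 1103 and 1096 FPKM in WT (ratio 1.13). Both sums were higher in each bcas2-KO library than in any WT library. The ratio was 1.60 for CLK, 1.38 for SR-related, 1.37 for Tra2 and 1.26 for PTB genes, and 1.07 for Rbfox genes, whose sums overlapped. Subfamilies were described and not tested against each other.

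**Figure D3:**
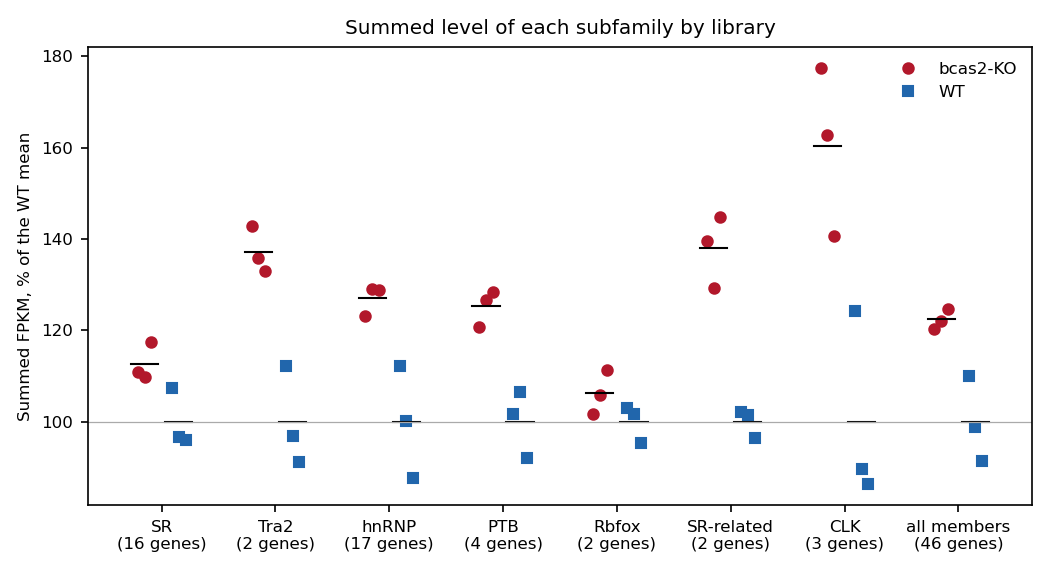
Summed FPKM of each subfamily in each library as a percentage of its WT mean, with bcas2-KO libraries (circles) left of WT libraries (squares) and dashes for the means. For all members together the bcas2-KO libraries lie at 3773 to 3911 FPKM and the WT libraries at 2867 to 3446 FPKM, and the Rbfox genes are the only subfamily shown in which the genotypes overlap.

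Many of these genes exist as pairs that zebrafish kept after the duplication of the teleost genome, and the call often differed between the copies of a pair. Of 13 duplicate pairs, 3 had both copies higher (srsf2, hnrnpa0 and ptbp2), 6 had 1 copy higher and the other not passing, 3 had neither and 1 had a lower copy. A call in 1 copy alone does not show that the copies differed. In clk4 the copy that did not pass, clk4a (log2 fold change 0.61, SE 0.25), had a larger fold change than the called clk4b (0.51, SE 0.11). The number of pairs with both copies higher was 0 without bcas2-KO library 1 or 3, 1 without bcas2-KO library 2 or WT library 2 or 3, and 4 without WT library 1. It was 1 with upper-quartile factors and with limma, and 2 with no filter or without both libraries with eye transcripts. For each pair the log2 ratio of the counts of the b copy to the a copy was formed inside each library, where it needs no scaling. It differed without overlap between genotypes in 10 of 13 duplicate pairs and in 2 of 3 pairs of more distant relatives. The CPM of single genes differed without overlap in 39.4% of all tested genes, which is not a share of ratios. No such share was computed for ratios of other gene pairs. With 3 libraries per group the exact permutation test (two-sided) cannot go below p = 0.1, the value in all 12 pairs, or 0.133 adjusted over the 16 pairs, so no ratio reached the threshold.

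The widest shift was in srsf1b over srsf1a. Its log2 ratio was 0.19, 0.30 and 0.14 in bcas2-KO and -0.49, -0.67 and -0.60 in WT, a difference of 0.80 (SE 0.07). The b copy made up 43.9% ± 1.37 of the summed FPKM of the pair in bcas2-KO and 31.1% ± 1.30 in WT (SD, n = 3 each), so srsf1a was the more abundant per length in both genotypes. The ptbp1 pair had log2 ratios of 0.08, 0.11 and -0.02 in bcas2-KO and -0.25, -0.60 and -0.55 in WT, a difference of 0.52 (SE 0.12). Its b copy held 52.6%, 53.2% and 51.0% of the FPKM in bcas2-KO and 47.0%, 41.0% and 41.8% in WT. The leading copy per length was therefore ptbp1b in every bcas2-KO library and ptbp1a in every WT library.

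The srsf5 pair had the most even ratios within a genotype. They were -0.37, -0.37 and -0.35 in bcas2-KO and -0.83, -0.88 and -0.77 in WT, a difference of 0.46 (SE 0.03). The share of srsf5b in the FPKM of the pair was 51.0% ± 0.230 in bcas2-KO and 43.1% ± 0.888 in WT, and here too the leading copy per length differed between the genotypes. The summed FPKM of this pair was 131 ± 11.7 in bcas2-KO and 148 ± 3.43 in WT, and it was the single duplicate pair with a sum that was lower without overlap.

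In other pairs the share of the a copy was the larger in bcas2-KO. The log2 ratio of srsf7b to srsf7a was -2.86, -2.91 and -3.02 in bcas2-KO and -2.56, -2.73 and -2.52 in WT (difference -0.33, SE 0.08). For hnrnpabb over hnrnpaba it was -1.38, -1.39 and -1.35 in bcas2-KO and -1.07, -1.09 and -0.95 in WT (difference -0.34, SE 0.04). For hnrnpa0b over hnrnpa0a it was -4.93, -4.84 and -5.14 in bcas2-KO and -4.69, -4.60 and -4.59 in WT (difference -0.34, SE 0.10). In these 3 pairs the a copy was the more abundant per length in both genotypes. For srsf3b over srsf3a, the much less abundant copy, the ratios were 5.03, 5.07 and 5.04 in bcas2-KO and 5.58, 5.64 and 5.43 in WT (difference -0.50, SE 0.06), and srsf3a held 4.62% of the FPKM in bcas2-KO and 3.30% in WT.

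Smaller shifts without overlap were found in hnrnpub over hnrnpua (0.29, SE 0.08), srsf6b over srsf6a (0.18, SE 0.07) and srsf2b over srsf2a (0.13, SE 0.06). In srsf2 the lowest bcas2-KO ratio and the highest WT ratio were equal at 2 decimals (-2.34). The ratios overlapped in hnrnpa1, ptbp2 and clk4, with differences of -0.04 (SE 0.05), -0.03 (SE 0.11) and -0.11 (SE 0.20). Among distant relatives the ratio of rbfox2 to rbfox1 lay above WT in every bcas2-KO library (difference 0.53, SE 0.10), as did that of tra2b to tra2a (0.27, SE 0.07). The genes hnrnpd and hnrnpdl kept a mean log2 ratio of 1.19 in bcas2-KO and 1.17 in WT. The sources used here do not say how reads that match both copies of a pair were counted, so ratios of similar copies are uncertain.

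**Figure D4:**
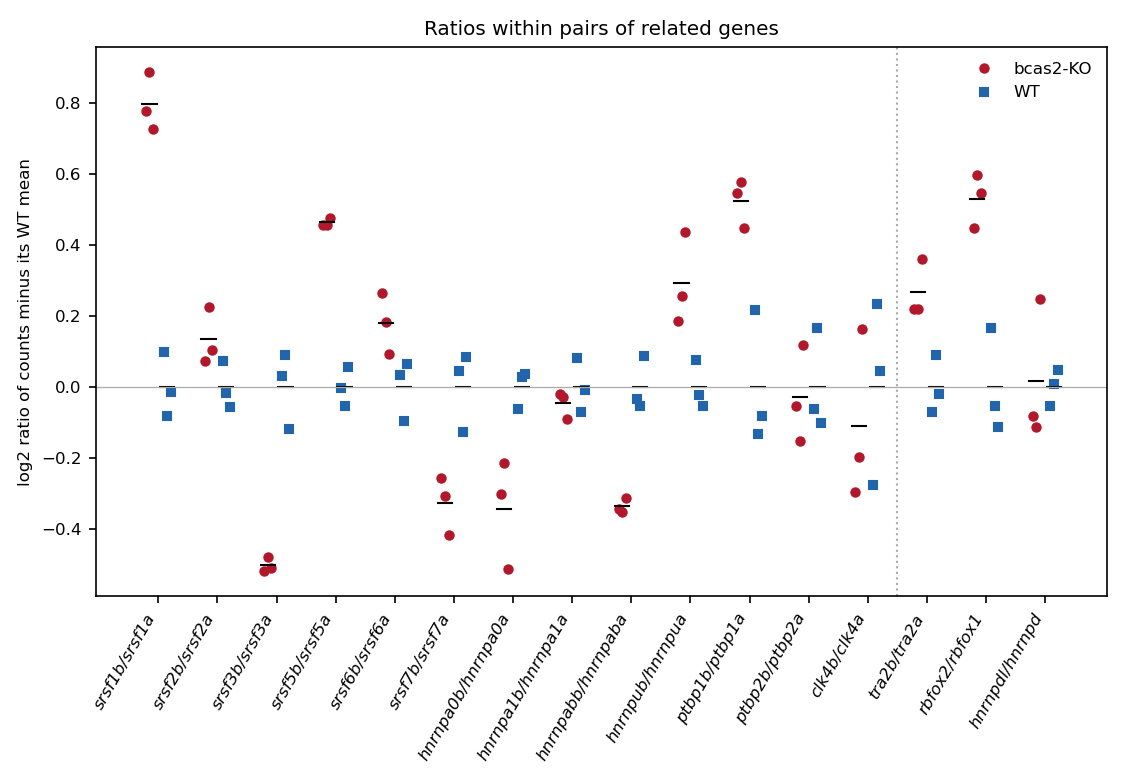
Log2 ratio of the counts of 2 related genes in each library, minus its mean over the WT libraries, for 13 duplicate pairs and, right of the dotted line, 3 pairs of more distant relatives; bcas2-KO libraries are circles on the left, WT libraries squares on the right, and dashes are means. The srsf1 pair shows the largest difference (0.80), and hnrnpa1, ptbp2, clk4 and hnrnpdl/hnrnpd overlap.

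By mean FPKM in WT, the members spanned from 229 ± 29.2 for hnrnpaba to 3.63 ± 0.334 for srsf3a (SD, n = 3). The next in order were hnrnpa1a (173 ± 27.9), srsf6a (170 ± 11.9), hnrnpa1b (157 ± 32.0) and hnrnpabb (145 ± 13.1), and each of these overlapped with its neighbour in the order. Of the 46, hnrnpaba exceeded 97.9% of tested genes and clk4b (13.4 ± 1.88) still exceeded 66.4%. The 3 least abundant were hnrnpa3 (5.33 ± 1.69), hnrnpa0b (4.02 ± 0.343) and srsf3a, set apart from the rest without overlap. Level and fold change were weakly related over the 46 genes (Pearson r = -0.10, Spearman rho = -0.19, a description over genes of the same libraries).

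Some members are neighbours. In the gene order of the RefSeq table of assembly GRCz12tu, which is not the build of the counts, hnrnpd lies next to hnrnpdl with 0 coding genes between them, and srsf7a next to hnrnpl. Their log2 fold changes were 0.32 and 0.34 in the first pair and 0.48 and 0.43 in the second. The kinase gene clk4a (0.61) has 2 coding genes between it and hnrnpaba (0.38). Between srsf11 (0.34) and srsf7b (0.15) lie 5 coding genes, and between srsf10b (0.11) and hnrnpr (0.62) lie 7. Of 47 listed symbols found in that annotation, 12 overlap another gene there, among them the called hnrnpa0a, hnrnpa0b, hnrnpaba, hnrnpc, srsf9 and tra2a. Also among the 12 are srsf1a, srsf3a, srsf5b and srsf6a, which did not pass but enter the ratios of duplicate pairs. The library kit as named does not mark strand, so reads from a stretch that 2 such genes share would not tell them apart. Whether they share exons in the build of the counts was not tested.

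A wider list of 82 splicing regulators gave the setting for these members. Of its 75 genes with a row, all tested, 25 were higher (33.3%), 5 were lower (6.67%) and 45 did not pass. Over all tested genes 10.6% were higher and 9.01% lower. The median log2 fold change of the 75 was 0.20. Leaving out WT library 2 gave 13 higher and 3 lower of the 75, and leaving out bcas2-KO library 1 gave 15 higher and 3 lower. In the fit without bcas2-KO library 1, 1179 of all 22764 tested genes were higher and 795 lower. Of the other kinases and import factors of SR proteins, 6 of 11 were higher and 0 were lower (median 0.32), and 3 were higher without WT library 2. The dual-specificity kinase gene dyrk1aa stood at 315 ± 27.6 CPM in bcas2-KO and 174 ± 15.4 CPM in WT (log2 fold change 0.85, SE 0.10, adjusted p = 6.0e-04), and its duplicate dyrk1ab at 50.9 ± 2.55 CPM in bcas2-KO and 32.9 ± 1.14 CPM in WT (0.63, SE 0.08, adjusted p = 8.7e-04). The SRPK genes srpk1a (0.32, adjusted p = 0.0227) and srpk3 (0.41, 0.0101) were higher, and srpk1b (0.25, 0.143) did not pass. The srpk1a call was lost without bcas2-KO library 1 or 3, WT library 2 or 3 or both libraries with eye transcripts (adjusted p from 0.0509 to 0.0894), and that of srpk3 without WT library 2 (0.0554). No kinase or import gene of that list was lower at an unadjusted p under 0.05 or by DESeq2.

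Among further SR-like genes, 7 of 19 were higher and 3 lower (36.8% and 15.8%, against 10.6% and 9.01% of all tested genes). The number higher was 3 without bcas2-KO library 1 or WT library 2. The gene rbm39a, for an RNA-binding partner of U2AF, stood at 183 ± 10.8 CPM in bcas2-KO and 108 ± 8.70 CPM in WT (0.76, adjusted p = 6.0e-04), and acin1b, for a protein bound to exon junction complexes, at 178 ± 6.98 CPM in bcas2-KO and 117 ± 2.39 CPM in WT (0.61, adjusted p = 6.8e-04). Lower were rbm25a (-0.79, adjusted p = 0.00183), sfswap (-0.43, 0.00401) and arglu1b (-0.39, 0.0144). The arglu1b call was lost without bcas2-KO library 1 (0.0725), without WT library 2 (0.0593) and without both libraries with eye transcripts (0.0658). Of further hnRNP-related genes, 11 of 25 were higher and 1, ewsr1b, was lower (-0.71, adjusted p = 0.0104), and 7 were higher without bcas2-KO library 3 or WT library 2. The symbols ewsr1b and, among SR-like genes, rnps1 each stood on 2 rows, of which only the first was used. In the tissue-restricted regulators, 1 of 20 was higher, celf1 (0.25, adjusted p = 0.0344), and 1 was lower, the neuronal rbfox3a (-0.35, adjusted p = 0.0203). Their median was 0.03. Each of these calls is 5.0% of the list, below the share of all tested genes in its direction. The celf1 call was lost without any single library other than WT library 1, without both libraries with eye transcripts and with upper-quartile factors (adjusted p from 0.0624 to 0.129). That of rbfox3a was lost without bcas2-KO library 1 (0.061) or 2 (0.0708) or WT library 2 (0.0692). The names celf1 and rbfox3a were chosen after their values were seen, and so were those of the SRPK genes.

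**Figure D5:**
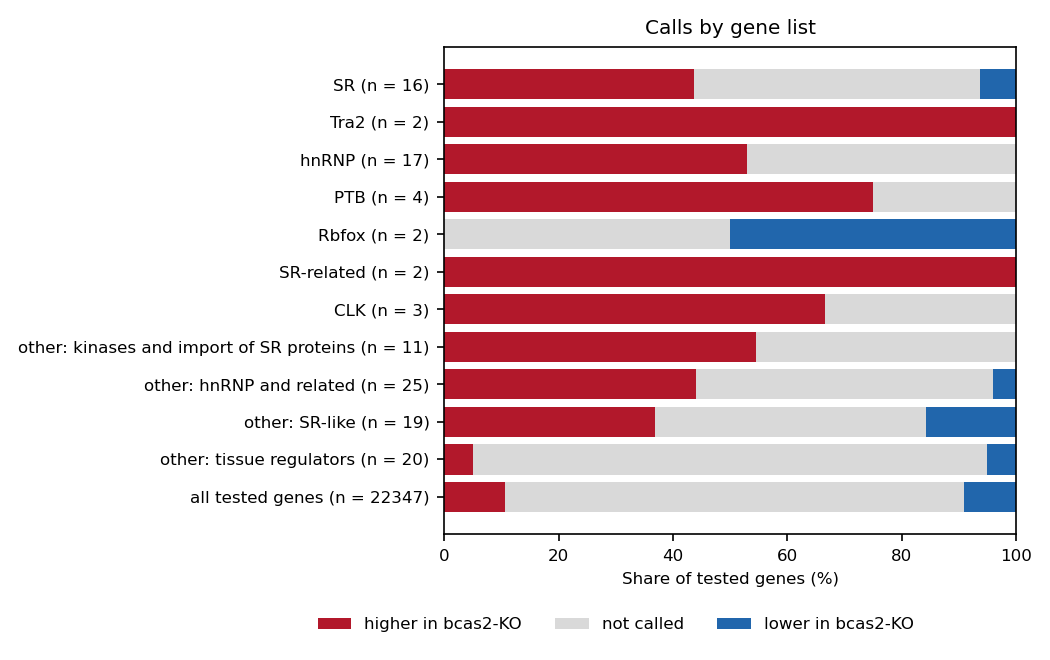
Share of tested genes called higher (left part of each bar), not called (middle) and called lower (right) in bcas2-KO, for each subfamily, each list of further splicing regulators and all 22347 tested genes. Higher calls make up 43.8% of SR and 52.9% of hnRNP genes, 5.0% of tissue regulators and 10.6% of all tested genes.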

How the data were processed

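RNA was measured in 3 bcas2-KO and 3 WT pools of embryos. Lens and photoreceptor transcripts differed between libraries, so whether every pool held whole embryos is uncertain. Per the labels, a NEBNext Ultra RNA kit was used and reads were paired. The authors deposited a table of raw counts, in whole reads for each Ensembl gene, and the deposited FPKM values are a second table of the same genes. The submitters' processing notes name cutadapt 1.15, STAR 2.6.1a, featureCounts 1.6.0, StringTie 1.3.3b, DESeq2 1.22.1 and the build GRCz11, without saying which made which table. The sources used here do not give the annotation, strand setting or filters.

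The members and lists were chosen with earlier results of these data known. Counts of all genes were filtered (filterByExpr, minimum count 10), scaled by TMM and compared with edgeR 4.0.16 (robust quasi-likelihood test, R 4.3.3), with Benjamini-Hochberg adjustment over all 22347 genes. SE is the log2 fold change divided by the root of F. Paralog ratios used counts with 0.5 added and an exact permutation test (scipy 1.17.1). Values in every library are given for the 2 members of each subfamily with the smallest p, for both copies of duplicate pairs whose ratios do not overlap, for lower members and for the 4 highest fold changes, 30 members in all. The rows for hnrnpa1a, hnrnpa1b, clk4a, clk2b, ptbp2b and the gene named srsf10a were added after their values were seen, as were the names of the neural progenitor markers. Of the wider list, the 4 genes with the smallest p in each direction are named. Alternatives were RLE, upper-quartile and no scaling factors, 2 other filters, DESeq2 1.42.0, limma 3.58.1 on log2(FPKM + 0.1) and log2(FPKM + 1), a replicate block, each library left out, and both libraries with eye transcripts left out. On simulated data the share of false calls was above the nominal threshold, and recovery was lowest for the smallest simulated fold. Libraries of a genotype differed by 12.7 to 35.9 in chi-square per degree of freedom, so none was a copy. Per the labels the pools are biological replicates, but clutches are not stated, so p-values measure the spread between these pools. A floor of 3 counts is 0.0587 to 0.0923 CPM and covers counting error only. Planned protein and promoter sequences were not used here.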

Additional observations from a re-analysis of the deposited data

How the results depend on the processing

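Leaving out 1 library at a time moved the count of called genes over all genes between 1730 and 5171 (4382 with all libraries), of members called higher between 10 and 30 (25) and of members called lower between 0 and 2 (2). In the other settings the members called higher ranged from 18 (upper-quartile factors) to 28 (DESeq2), and 2 were lower in each. Upper-quartile factors called 39.9% of the called genes higher, against 54.1% with TMM factors, with a median log2 fold change over all tested genes of -0.08 (-0.02 with TMM). Of the 25 higher members, 9 kept their call in all 16 alternatives and 16 lost it in at least 1, and the sign never changed in a called member. Sign changes were limited to members near 0. Upper-quartile factors gave -0.01 for hnrnpabb, and the 4 libraries without eye transcripts gave 0.03 for srsf1a and 0.01 for hnrnpua. Across single libraries left out, hnrnpabb ranged from -0.01 to 0.13, srsf1a from -0.10 to 0.01, srsf3b from -0.09 to 0.02, srsf4 from -0.11 to 0.00 and ptbp1a from -0.10 to 0.02. The cause was not tested. Of 128 recomputed paralog ratios 0 changed sign where genotypes did not overlap, and 3 moved by 1 SD or more, all without the libraries with eye transcripts: 0.02 for hnrnpa1, 0.67 for ptbp1 and -0.39 for clk4. Libraries of the 2 genotypes with the same replicate number had correlations of deviations of -0.143, 0.375 and 0.013. Not every library correlated best with its own number. So few values cannot decide whether the numbers pair the libraries. The replicate block gave 4922 called genes, with 27 members higher and 2 lower. The replicate block also called hnrnph1l (adjusted p = 0.0407) and clk4a (0.00621). The members with the fewest counts were srsf3a, hnrnpa0b and hnrnpa3.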
